A study of Mus musculus with 2 samples.

Results

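The genes described here are Rag1, Rag2, Dntt, Ly6d and Arpp21, 5 of the 27998 genes counted in the series, taken by their symbols and measured in every cell with at least 500 detected genes and at most 10% of its molecules from mitochondrially encoded genes. The study profiled αLPs, lymphoid progenitors that carry the integrin α4β7, by droplet single-cell RNA sequencing with a 10x Chromium 3′ kit. There was 1 library from E14.5 fetal liver and 1 library from adult bone marrow, both from untreated wild-type B6 mice. Both libraries were sorted in the same way, as lineage-negative CD45+ CD127+ Flt3- α4β7+ CD25- cells, with a stated purity above 90%. No source used here names the antibodies of the lineage cocktail or the number of animals pooled, and the age label of 6 to 8 weeks stands on the fetal sample as well as on the adult one. A comparison of the libraries is therefore a comparison of 1 fetal with 1 adult preparation, and tissue, age and preparation cannot be told apart.

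V(D)J recombination assembles the antigen receptor genes of B and T cells from separate gene segments. The proteins RAG1 and RAG2 form the recombinase that cuts DNA at the segments, and the cut ends are closed by the general non-homologous end joining enzymes. Dntt encodes terminal deoxynucleotidyl transferase (TdT), which adds bases without a template at the joints, and its low activity in fetal lymphocytes is a textbook reason for the short joints of fetal antigen receptors. Ly6d is a small surface protein whose appearance on lymphoid progenitors of adult marrow marks cells inclined to the B lineage. Arpp21 is an RNA-binding protein expressed in thymocytes, early B cells and brain. Innate lymphoid cells (ILCs), which can arise from αLPs, carry no rearranged antigen receptors.

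The regions just upstream of the 3 recombination genes are shown because Rag1, Rag2 and Dntt are read side by side throughout and differed in their pattern between the tissues. The sequences are those of RefSeq on GRCm38.p6, 250 bases each, written 5′ to 3′ on the strand of the gene and ending just before the start of the RefSeq transcript. Capitals mark every CANNTG, the core of the E box that E proteins and related factors of lymphoid cells can bind. The motif reads as CANNTG on both strands, so 1 search covers both. The windows lie at chr19:41029025-41029274 on the plus strand for Dntt, at chr2:101649533-101649782 on the minus strand for Rag1 and at chr2:101624462-101624711 on the plus strand for Rag2.
Dntt: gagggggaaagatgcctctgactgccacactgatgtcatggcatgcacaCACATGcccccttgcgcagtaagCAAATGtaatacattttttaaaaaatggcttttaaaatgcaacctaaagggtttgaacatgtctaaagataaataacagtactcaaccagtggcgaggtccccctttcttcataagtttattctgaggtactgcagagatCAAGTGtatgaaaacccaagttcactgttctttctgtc
Rag1: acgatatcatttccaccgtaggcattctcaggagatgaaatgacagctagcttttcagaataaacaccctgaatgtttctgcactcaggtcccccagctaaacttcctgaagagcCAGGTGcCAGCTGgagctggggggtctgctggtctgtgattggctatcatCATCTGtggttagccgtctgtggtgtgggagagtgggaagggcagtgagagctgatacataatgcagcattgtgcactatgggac
Rag2: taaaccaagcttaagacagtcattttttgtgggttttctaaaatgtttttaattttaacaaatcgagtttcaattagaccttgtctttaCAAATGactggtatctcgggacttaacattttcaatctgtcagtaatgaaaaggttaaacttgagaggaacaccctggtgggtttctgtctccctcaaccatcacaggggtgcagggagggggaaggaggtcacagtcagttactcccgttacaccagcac
The Dntt window held 3 matches, the Rag1 window 3 and the Rag2 window 1. The motif occurred in 66.2% of the 32536 upstream windows of the same length, so its presence does not set these 3 genes apart, and a match is a string of letters rather than a shown binding site.

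In the mouse genome (GRCm38, GENCODE M21) Dntt lies on chromosome 19 at 41029275 to 41059525 on the plus strand. Rag1, on chromosome 2 at 101638282 to 101649501 on the minus strand, and Rag2, at 101624718 to 101632529 on the plus strand, face each other with 5752 bases between them. Ly6d lies on chromosome 15 at 74762056 to 74763620 and Arpp21 on chromosome 9 at 112065091 to 112235938, both on the minus strand. Rag1 is enclosed on its own strand by the gene model B230118H07Rik, which shares 80 of the 6608 exon bases of Rag1 (1.21%), so a small part of the reads of one could be assigned to the other. B230118H07Rik stood at 15.2 and 18.0 counts per 1000000 UMIs (unique molecular identifiers, 1 per captured RNA molecule) in the fetal and the adult library.

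The fetal liver library held 8583 kept cells with 91285900 UMIs and the bone marrow library 7258 cells with 29941097. The median cell held 9294 UMIs in the fetal and 3447.5 in the adult library, a 2.70-fold gap in depth that raises every unthinned share of positive cells in fetal liver. A level of 3 UMIs, taken as the floor, corresponded to 0.0329 counts per 1000000 UMIs (CPM) in the fetal and 0.100 CPM in the adult library. In all, 19 cell barcodes occurred in both libraries. The genes of the gate were present: Il7r (CD127) stood at 178 CPM in the fetal and 417 CPM in the adult library, Itga4 at 172 and 262, Itgb7 at 47.9 and 61.8 and Ptprc (CD45) at 78.6 and 135. The genes gated out were low, with Flt3 at 1.45 and 1.20 CPM and Il2ra (CD25) at 1.08 and 7.78 CPM. With 1 library per tissue no test between tissues is possible. All intervals below are 95% intervals that cover counting error only, since neither cells nor PCR copies are independent samples of a tissue, and a difference of at least 2-fold is a rule of size.

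Dntt separated the libraries almost completely. Bone marrow held 1919 Dntt UMIs and fetal liver 1. The level was 64.1 CPM (exact Poisson interval 61.3 to 67.0) in bone marrow and 0.0110 CPM (0.000277 to 0.0610) in fetal liver, where the single UMI lies below the floor. The log2 ratio, fetal over adult library, was -12.51 (exact conditional interval -17.82 to -10.03). This was the lowest value of the 11729 genes that reached 1 CPM in either library. Genes with 0 fetal UMIs were set at the floor for this ranking, while Dntt was ranked on its 1 UMI below the floor. Its rank against those genes is therefore not settled. A Dntt UMI was found in 605 bone marrow cells (8.34%, exact Clopper-Pearson interval 7.71 to 8.995%) and in 1 fetal liver cell (0.0117%). That fetal cell was very deep, with 42858 UMIs, and also held Ly6d and Arpp21.

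The gap was also present at equal depth. After every cell was thinned to 2000 UMIs, which left out 131 fetal liver and 1335 bone marrow cells, Dntt was found in 351 of 5923 bone marrow cells (5.93%) and in 0 of 8452 fetal liver cells, which allows a share of cells with a UMI of up to 0.0355%. This limit and the others given for a count of 0 are 3 counts over the number of cells, not the bound of an exact interval. Among the positive bone marrow cells 31.2% held 1 UMI and the highest cell held 19, so Dntt was not a gene seen only at the edge of detection. The summed level within the positive cells was 445 CPM.

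Rag1 and Rag2 were rare transcripts in both libraries and did not follow Dntt. Fetal liver held 199 Rag1 UMIs and bone marrow 30, which gave 2.18 CPM (1.89 to 2.50) and 1.00 CPM (0.676 to 1.43). The log2 ratio was 1.12 (0.56 to 1.73), a 2.18-fold higher level in fetal liver. The 2 intervals of the level did not overlap. Rag1 was found in 135 fetal liver cells (1.57%, 1.32 to 1.86%) and 27 bone marrow cells (0.372%, 0.245 to 0.541%), and in 0.485% and 0.135% of thinned cells. Without 1 group of fetal cells described below, the log2 ratio over the whole libraries was 0.055. Among thinned cells with a Ly6d UMI it was 3.77 (1.57 to 6.98) without that group, from 11 and 2 UMIs.

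For Rag2, 158 UMIs were counted in the fetal and 48 in the adult library. Its levels, 1.73 CPM (1.47 to 2.02) and 1.60 CPM (1.18 to 2.13), had overlapping intervals, and the log2 ratio of 0.11 (-0.36 to 0.61) included 0. Rag2 was found in 131 fetal liver cells (1.53%) and 41 bone marrow cells (0.565%). After thinning, the counts were 27 cells (0.319%) and 13 cells (0.219%), whose intervals overlapped as well. Without the same group of fetal cells the Rag2 ratio was -0.38, with each cell weighing the same it was 1.10 and without the 10% deepest cells 0.98, so neither its direction nor its side of 2-fold is settled. Most positive cells held a single UMI, 66.7% in fetal liver and 88.9% in bone marrow for Rag1, and 83.2% and 90.2% for Rag2, so a cell without a UMI cannot be read as a cell without the transcript. Positive cells were deeper than negative ones, with medians of 11555 against 9263.5 UMIs for Rag2 in fetal liver and 7708 against 3439 in bone marrow.

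Ly6d, the surface marker, reached high counts in single cells, with up to 169 UMIs in 1 fetal liver cell and 95 in 1 bone marrow cell. It stood at 66.4 CPM (64.7 to 68.1) in fetal liver and 148 CPM (143 to 152) in bone marrow. The log2 ratio of -1.15 (-1.21 to -1.10) makes it 2.22-fold higher in bone marrow. The positive cells numbered 406 (4.73%) and 518 (7.14%), and after thinning 2.78% and 6.23%. Within the positive cells the levels were 1267 CPM (fetal) and 1216 CPM (adult) on all UMIs. After thinning, a positive cell held on average 6.18 Ly6d UMIs in the fetal and 4.15 in the adult library. Without the group of fetal cells described below, the fetal average was 4.53. With each cell weighing the same the log2 ratio was -0.26, and without the 10% deepest cells it was -0.40, both short of 2-fold.

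Arpp21, the RNA-binding protein, followed Ly6d in direction. It stood at 7.83 CPM (7.27 to 8.43) in fetal liver and 18.5 CPM (17.0 to 20.1) in bone marrow, with a log2 ratio of -1.24 (-1.40 to -1.08), a 2.37-fold higher level in bone marrow. The shares of positive cells, 4.75% and 5.04%, had overlapping intervals before thinning and stood at 1.51% and 2.72% after it. With each cell weighing the same the log2 ratio was -0.67, and without the 10% deepest cells it was -0.92, both short of 2-fold. Of the 5 genes, Rag1 passed the 2-fold rule toward fetal liver, and Dntt, Ly6d and Arpp21 passed it toward bone marrow. Over all 11729 genes, 9.30% passed it toward fetal liver and 15.3% toward bone marrow, and the median log2 ratio of all genes was -0.12. A trimmed mean (TMM) scaling would shift every log2 ratio upward by 0.14 and a median-ratio scaling by 0.16, which leaves the Ly6d ratio at -1.02 and -0.99, the latter short of 2-fold.

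**Figure D1:**
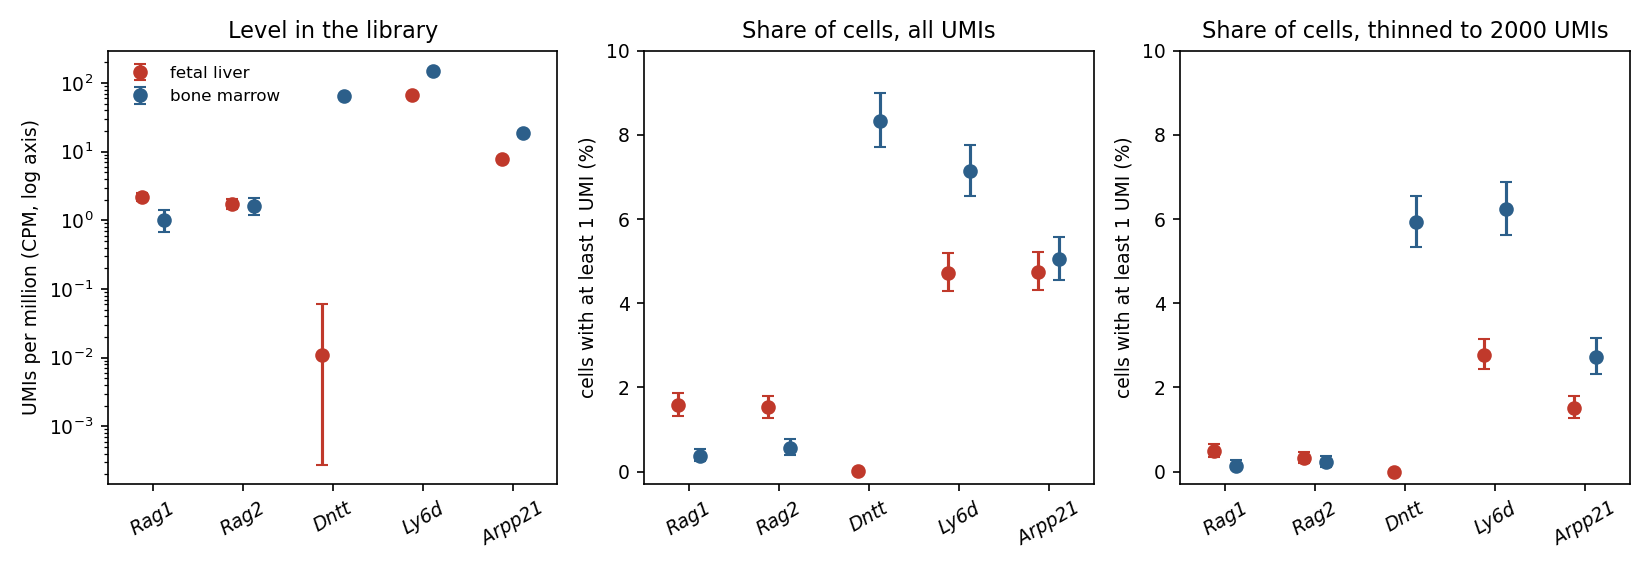
Level of each gene in CPM on a log axis (left), the share of cells with at least 1 UMI (middle) and the same share after thinning each cell to 2000 UMIs (right), for the fetal liver (red) and bone marrow (blue) library. Points are the value of the 1 library per tissue and bars are exact 95% counting intervals. Dntt is near 0 in fetal liver and at 8.34% of cells in bone marrow, while Rag1 is higher in fetal liver in all 3 panels.

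The genes of the end joining machinery, which every dividing cell uses, differed far less than Dntt. Of the other members of a list of recombination and end joining enzymes, 10 reached 10 CPM in either library, where 7.25% of all genes passed the 2-fold rule toward fetal liver and 10.9% toward bone marrow. Of the 10, 1 passed it toward fetal liver and 0 toward bone marrow, and their median log2 ratio was 0.08 against 0.01 for all 6938 genes. The 1 gene was Hmgb2, a DNA-bending protein that assists RAG cutting and is also a gene of dividing cells, at 2120 CPM in the fetal and 989 CPM in the adult library. The list of genes of the G2 and M phases was higher in fetal liver in 14 of 15 cases beside it. Xrcc6, which encodes Ku70, the end-binding subunit of end joining, stood at 17.9 and 11.5 CPM (log2 ratio 0.64). Among the genes below 10 CPM, Lig4, the ligase that seals the joint, stood at 0.734 and 1.77 CPM in the fetal and adult library (-1.27), and Polm, a polymerase related to TdT, stood at 2.56 and 5.64 CPM (-1.14). The constant regions of the antigen receptors were not analysed here.

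Within single cells, most bone marrow cells with a Rag transcript also held Dntt. In bone marrow 25 of the 27 cells with a Rag1 UMI also held Dntt (92.6%, 75.7 to 99.1%), against 8.02% of the cells without Rag1. For Rag2 it was 35 of 41 cells (85.4%, 70.8 to 94.4%), against 7.90%. Nearly all these Rag-positive cells, 27 of 27 and 40 of 41, lay in 3 bone marrow clusters described below. In those clusters 59.1% of all cells (56.0 to 62.2%) held Dntt, at a median of 6609 UMIs against 3180 in the other clusters. The reverse shares were small, since 4.13% of Dntt-positive cells held Rag1 and 5.79% held Rag2, at depths where Rag transcripts were mostly seen as single molecules. In fetal liver none of the 135 cells with Rag1 and none of the 131 cells with Rag2 held Dntt, which allows shares of up to 2.22% and 2.29%. The cells that carried the recombinase transcripts thus mostly carried the TdT transcript in the adult library and not, at this depth, in the fetal one.

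Rag1 and Rag2 were also found together. In fetal liver 34 of 135 cells with Rag1 held Rag2 (25.2%, 18.1 to 33.4%), against 1.15% of cells without Rag1. In bone marrow it was 6 of 27 cells (22.2%, 8.62 to 42.3%), against 0.484%. The intervals of the shares in the 2 tissues overlapped.

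Ly6d and Arpp21 were each found more often in cells that held Rag1 or Dntt. In fetal liver 77 of 135 Rag1-positive cells held Ly6d (57.0%, 48.2 to 65.5%), against 3.89% of the cells without Rag1. In bone marrow 346 of 605 Dntt-positive cells held Ly6d (57.2%, 53.1 to 61.2%), against 2.59% of those without Dntt. Dntt-positive cells held Arpp21 in 236 cases (39.0%, 35.1 to 43.0%), against 1.95%. Ly6d-positive cells held Arpp21 in 178 of 406 cases in fetal liver (43.8%, 39.0 to 48.8%) and in 177 of 518 cases in bone marrow (34.2%, 30.1 to 38.4%). After thinning to 2000 UMIs these shares were 22.1% (17.0 to 28.0%) and 17.6% (13.9 to 21.9%), with overlapping intervals.

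Depth enters each of these shares, because deeper cells show more of every gene. After thinning to 2000 UMIs, 159 of 351 Dntt-positive bone marrow cells held Ly6d (45.3%), against 3.77% of the cells without Dntt. The Rag pairs became too thin to describe, with 5 of 8 Rag1-positive and 5 of 13 Rag2-positive bone marrow cells holding Dntt. Counting every cell once by its set of genes, 7872 fetal liver cells held none of the 5, 428 held 1, 206 held 2, 67 held 3 and 10 held 4. In bone marrow the numbers were 6374, 414, 284, 170 and 15, and 1 cell held all 5. The most frequent sets in bone marrow were Dntt with Ly6d (178 cells), Dntt alone (163), Ly6d alone (144) and Dntt with Ly6d and Arpp21 (139). In fetal liver they were Arpp21 alone (189), Ly6d alone (171) and Ly6d with Arpp21 (118).

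**Figure D2:**
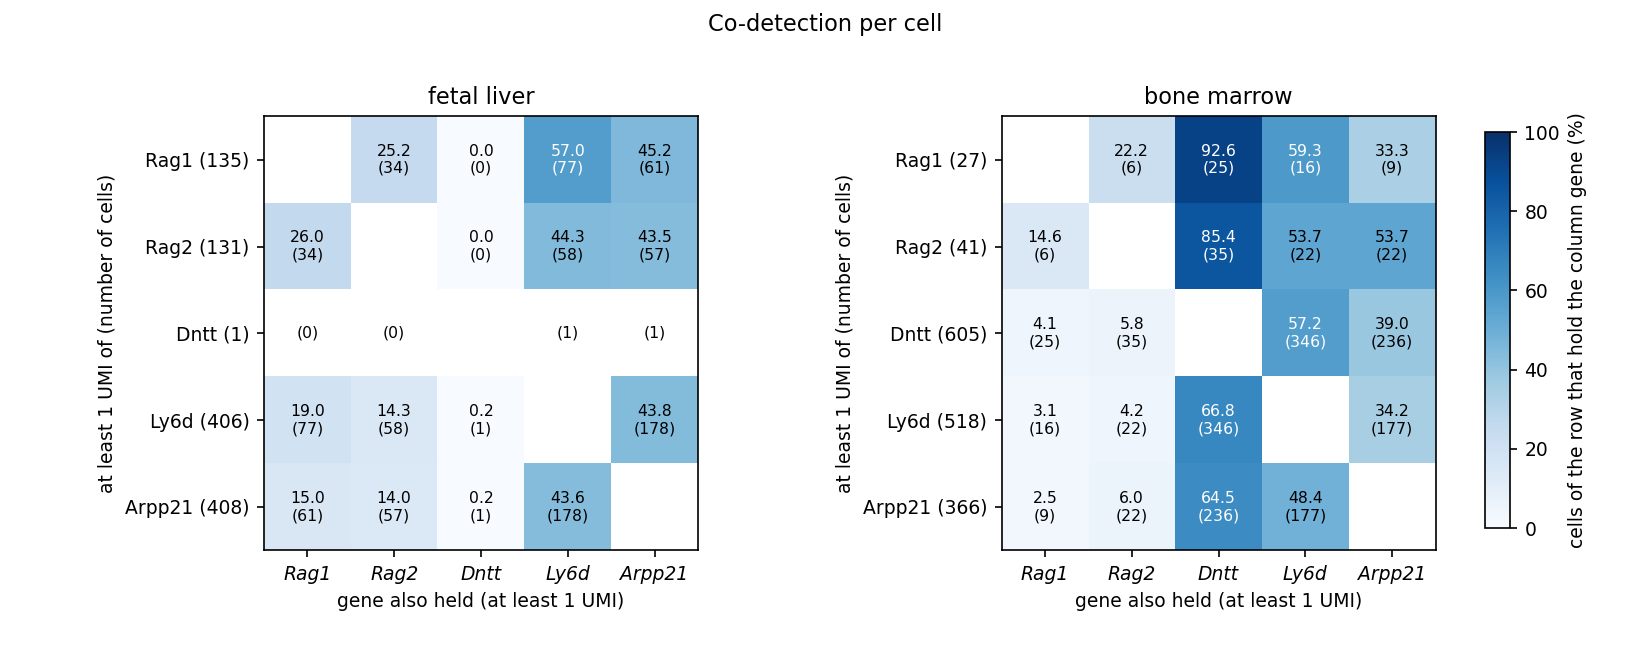
Share of the cells with at least 1 UMI of the gene on the vertical axis that also hold at least 1 UMI of the gene on the horizontal axis, in percent, with the number of cells in brackets, for each library on all UMIs. No share is shown for the 1 fetal liver cell with Dntt. The Dntt column is dark in bone marrow, at 92.6% for Rag1 and 85.4% for Rag2. It is near 0 throughout in fetal liver, where the 1 cell with Dntt appears in the rows of Ly6d and Arpp21.

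Each library was clustered by itself with the 5 genes left out, and in both the genes fell into a small part of the cells. Clusters in which at least 10% of cells held Ly6d were 1, 10 and 16 of 20 clusters in fetal liver (1104 cells, 12.9%) and 0, 13 and 14 of 16 clusters in bone marrow (969 cells, 13.4%). Since Ly6d chose these clusters, its own share there is no finding. The fetal clusters held 98.0% of the Rag1, 89.9% of the Rag2 and 85.7% of the Arpp21 UMIs of their library, and the bone marrow clusters 97.3% of the Dntt, 100% of the Rag1, 97.9% of the Rag2 and 85.6% of the Arpp21 UMIs. Outside them, Dntt was found in 32 of 6289 bone marrow cells (0.509%).

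The same shares were taken in clusters of other cells. In bone marrow cluster 8, led by Rnf128, Gimap3 and the interleukin 33 receptor gene Il1rl1, Dntt was found in 2 of 1351 cells (0.148%) at a median of 1765 UMIs. In fetal liver cluster 7, led by erythroid and myeloid genes, Ly6d was found in 3 of 369 cells (0.813%) and Rag1 in none at a median of 19902 UMIs, and Rag2 in 7 cells (1.90%). No profile of empty droplets was measured. Shares of a cluster at or below these are not read as expression. The Rag2 share of 1.53% over all fetal liver cells, also below 1.90%, is not read by itself. It combined 10.7% of cells in the Ly6d-containing fetal clusters with 0.174% in all other fetal clusters, at medians of 13395.5 and 8890 UMIs.

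The tissues were also compared within the Ly6d-containing clusters. Dntt stood at 268 CPM in bone marrow and 0.0631 CPM in fetal liver, from 1 UMI. After thinning, it was found in 332 of 950 bone marrow cells (34.9%) and in 0 of 1090 fetal cells, which allows up to 0.275%. Rag1 stood at 12.3 CPM in the fetal and 4.30 CPM in the adult clusters (log2 ratio 1.52, 0.96 to 2.12). Without fetal cluster 16, described next, Rag1 stood at 6.40 CPM in the other 918 fetal cells. The log2 ratio was then 0.57 (-0.04 to 1.22). Rag2 stood at 8.97 and 6.74 CPM (0.41, -0.07 to 0.92), with an interval that included 0. Arpp21 stood at 38.7 and 68.1 CPM (-0.82), short of 2-fold.

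The 3 fetal clusters differed from each other. Cluster 16, of 186 cells, was B lineage-like, with all 10 B lineage markers higher than in the other clusters and Vpreb3, Igll1, Cd79a and Ebf1 among its leading genes. Igll1 is part of the surrogate light chain of the pre-B cell receptor, Cd79a is a signalling chain of that receptor, Vpreb3 is a gene of early B cells and Ebf1 is the factor that sets the B lineage programme. It held 53.3% of the Rag1 UMIs of the library, 106 UMIs in 69 cells, or 54.9 CPM. Its Rag2 level was 24.9 CPM, with 48 UMIs in 38 cells, and its Ly6d level was 1588 CPM. B lineage cells within a lineage-negative gate may or may not fall inside the gate the study intended, which was not tested.

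Cluster 10, of 575 cells, had as its first genes by fold S100a9, S100a8, Camp and Ngp, which are granule and alarmin genes of neutrophils, but these were found in only 0.8696%, 1.57%, 0.696% and 0.348% of its cells. Plac8 (99.5% of cells), Adgrg1 (55.5%), Arpp21 (34.4%), Bex6 (33.4%) and Ly6d (31.0%) were also among its first 10 genes. In all, 7 of 8 lymphoid progenitor markers were raised, and the cluster was left without a name because its first genes were of another class. It held 62 Rag1 UMIs in 43 cells (8.22 CPM), 59 Rag2 UMIs in 53 cells (7.82 CPM) and the only Dntt UMI. Arpp21 was found in 198 of its cells, 53.4% of the Arpp21 UMIs of the library. Cluster 1, of 343 cells, was led by genes of dividing cells such as Cenpf, Nusap1 and Aurka. Its levels were 4.24 CPM for Rag1, 5.50 CPM for Rag2 and 28.0 CPM for Arpp21. The Rag1 interval of cluster 16, 44.9 to 66.4 CPM, lay above those of cluster 10 (6.30 to 10.5 CPM) and cluster 1 (2.80 to 6.17 CPM), which did not overlap each other. For Rag2 cluster 16 was again the highest (18.3 to 33.0 CPM), and clusters 10 and 1 overlapped.

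The 3 bone marrow clusters all held Dntt. Cluster 13, of 252 cells, was led by Gzma, Insl5 and Myl10, with the T lineage markers Cd3g, Bcl11b, Lck and Lat raised, and held Dntt in 179 cells (71.0%) at 499 CPM. Cluster 0, of 197 cells, was led by histone and mitosis genes and held Dntt in 142 cells (72.1%) at 304 CPM. Cluster 14, of 520 cells, was led by Bex6, Irf8, Il12a and Cox6a2, with 4 of 8 plasmacytoid dendritic markers raised, and held Dntt in 252 cells (48.5%) at 177 CPM. The Dntt intervals of the 3 clusters, 460 to 540, 280 to 329 and 164 to 191 CPM, did not overlap. Arpp21 followed the same order at 178, 74.3 and 30.8 CPM.

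Dntt was not equally frequent in every dividing cluster. Cluster 10 of bone marrow, with 204 cells, was led by the mitosis and proliferation genes Ube2c, Mki67 and Birc5, and Dntt was found there in 3 cells (1.47%). Rag1 was spread over clusters 0, 13 and 14 with 12, 10 and 8 UMIs, and Rag2 with 23, 9 and 15 UMIs. These counts are too low to order the clusters by Rag level.

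**Figure D3:**
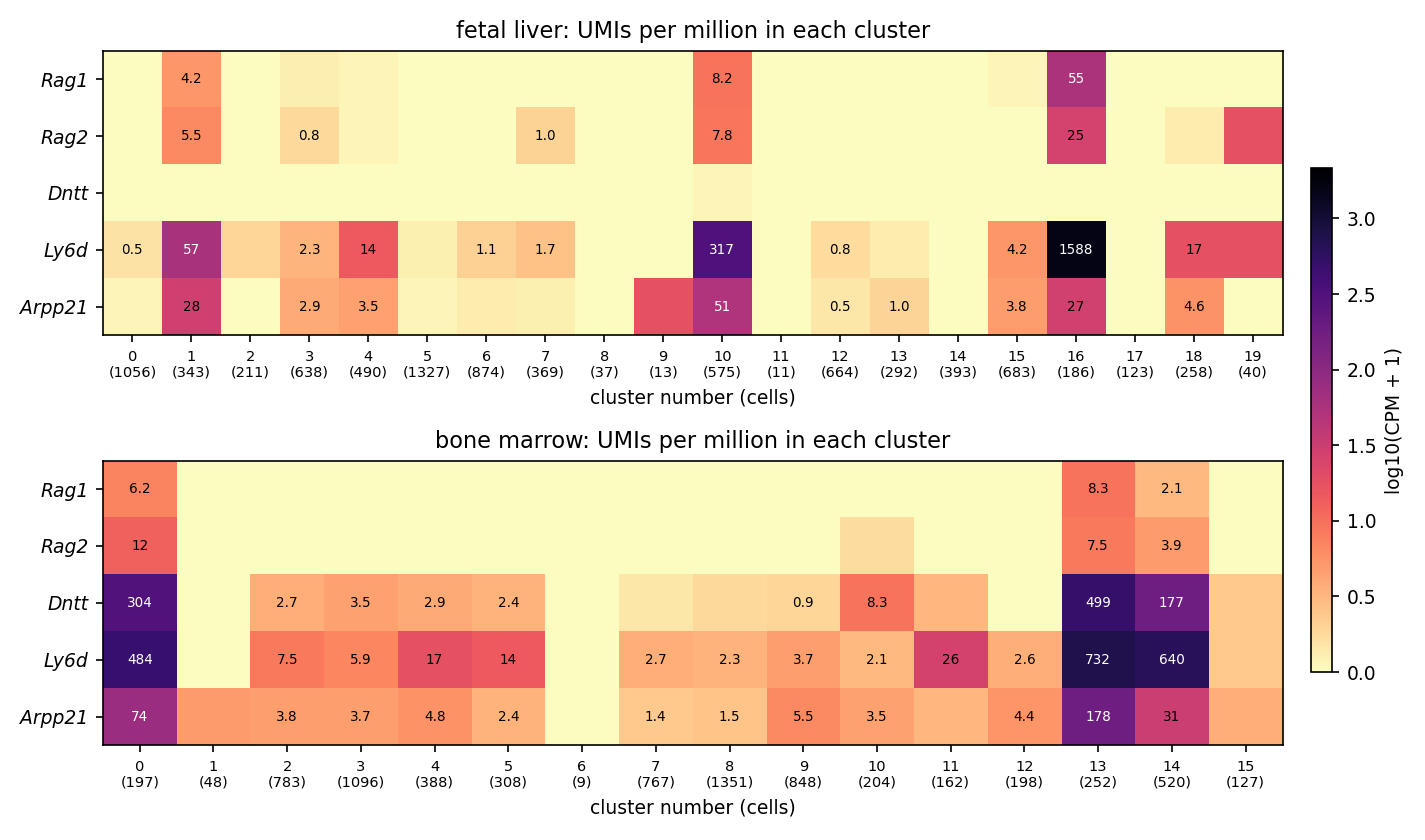
Level of the 5 genes in each cluster of fetal liver (top) and bone marrow (bottom), as log10 of CPM plus 1 by colour, with the CPM written where at least 3 UMIs were counted. Cluster numbers, with cells in brackets, are separate for each library. The genes share clusters 1, 10 and 16 in fetal liver and clusters 0, 13 and 14 in bone marrow, with Dntt at 304, 499 and 177 CPM in the latter.

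Within these clusters, cells were then sorted into classes by their own Ly6d count of 0, 1 to 4, 5 to 19 and 20 or more UMIs. In bone marrow cluster 14 Dntt stood at 134 CPM (119 to 151) in cells without Ly6d, at 187 CPM (157 to 221) and 224 CPM (189 to 263) in the middle classes and at 378 CPM (309 to 459) in the class with most Ly6d. In cluster 13 it stood at 327, 522 and 793 CPM over the first 3 classes, and in cluster 0 at 215, 347 and 349 CPM, with too few cells (7 and 15) in the highest class. Dntt was thus higher in cells with Ly6d than in cells without it in each of the 3 clusters. It rose further with more Ly6d in clusters 13 and 14, while the middle classes of cluster 0 were alike. Cells without any Ly6d UMI also held Dntt at over 100 CPM. Other genes of cluster 14 moved with Ly6d as well. Siglech, a receptor of plasmacytoid dendritic cells, stood at 0, 2.72, 4.50 and 25.7 CPM over the 4 classes, and Cox6a2, a mitochondrial subunit typical of these cells, at 20.3, 35.4, 70.5 and 356 CPM. The median depth of the classes was 7001, 7342.5, 7455 and 6522 UMIs.

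In the fetal B lineage-like cluster 16 the same classes held 65, 43, 36 and 42 cells. Rag1 stood at 61.2, 58.0, 56.9 and 36.2 CPM, with overlapping intervals. Igll1 stood at 800, 732, 363 and 36.2 CPM and Ebf1 at 1382, 1399, 1038 and 460 CPM, so both were lowest where Ly6d was highest. Cd79a, at 1005, 1245, 1145 and 1106 CPM, and Vpreb3, at 1371, 1656, 1429 and 1204 CPM, were not lowered in that way. Siglech, at 2.85, 2.24, 23.7 and 223 CPM, and Irf8, a factor of dendritic and B cells, at 39.9, 40.2, 71.1 and 396 CPM, were highest in the same class. Median depths were 9833, 9238, 11472 and 7839 UMIs. A single fetal cluster thus held cells with high Ly6d that carried plasmacytoid dendritic genes and less Igll1 and Ebf1 but as much Cd79a, beside cells with little or no Ly6d that carried all 4 B lineage genes. Whether the former were doublets was not tested. In fetal cluster 10 Igll1 had 0 UMIs in all 4 classes, while Ebf1 stood at 18.3, 16.8, 30.0 and 71.8 CPM. Arpp21 there stood at 24.9, 78.0, 171 and 190 CPM and Rag1 at 5.52, 11.9, 22.9 and 17.2 CPM.

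**Figure D4:**
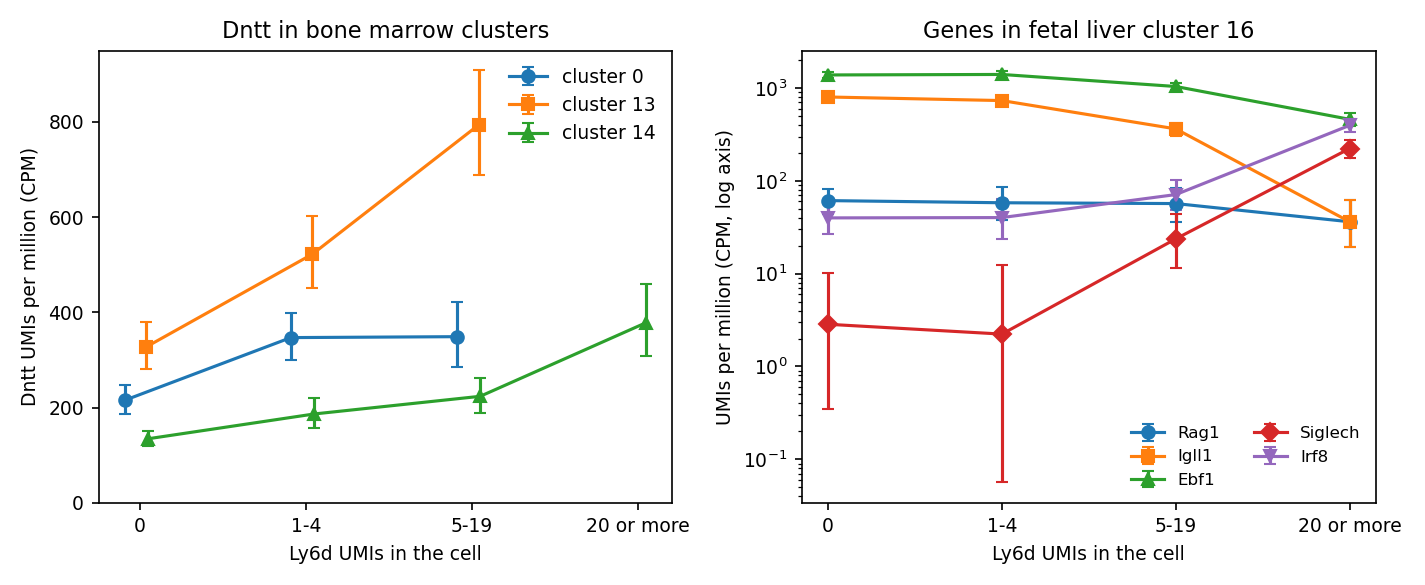
Level in CPM of Dntt in 3 bone marrow clusters (left) and of 5 genes in fetal liver cluster 16 (right, log axis) over cells with 0, 1 to 4, 5 to 19 and 20 or more Ly6d UMIs. Bars are exact 95% Poisson intervals of the counts, and classes with fewer than 20 cells are not drawn. Dntt is higher in cells with Ly6d than in cells without it, and runs from 134 to 378 CPM in cluster 14. Siglech and Irf8 are highest in the right class of cluster 16, where Igll1 and Ebf1 are lowest.

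The other genes of Dntt-positive cells were described in bone marrow over cells thinned to 2000 UMIs, 351 with and 5572 without a Dntt UMI. Of 7053 genes with at least 10 CPM in either set, 8.62% were at least 2-fold higher and 9.77% at least 2-fold lower in the positive cells, with a median log2 ratio of 0.03. The leading genes were Gzma, a granzyme of cytotoxic and some progenitor cells, at 198 against 9.69 CPM (log2 ratio 4.35), and the members Ly6d, at 1185 against 62.7 CPM (4.24), and Arpp21, at 140 against 9.15 CPM (3.93). They were followed by Myl10 (3.55), Dqx1 (3.30), Cox6a2 (3.03) and Aqp11 (3.02). The largest differences in the other direction were those of Hlf, a factor of stem cells (-5.71), Cxcl2 (-5.33), the chemokine receptor Cxcr6 (-4.83) and Xcl1 (-4.75).

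Genes of the ILC path were lower in these cells as a group. Of 13 measured ILC progenitor genes, 0 were at least 2-fold higher and 10 at least 2-fold lower, with a median log2 ratio of -1.74. Id2, the E protein antagonist required for ILCs, stood at 121 CPM with Dntt and 1105 CPM without (-3.19). Icos, a costimulatory receptor of ILC2, stood at 25.6 and 219 CPM (-3.09), and Il1rl1, the interleukin 33 receptor, had 0 UMIs with Dntt and 471 without, at least 9.89-fold lower. All 3 measured genes of lymphoid tissue inducer cells were lower, among them Ltb (-2.84). Of 7 natural killer or ILC1 genes 6 were lower, such as Klrd1 (-3.76) and Eomes (-3.56), and Gzma was the 1 that was higher.

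Other lymphoid programmes were mixed. Of 6 plasmacytoid dendritic genes 4 were higher, Smim5 (3.36), Cox6a2 (3.03), Bst2 (1.45) and Irf8 (1.27), although thinning to 3000 UMIs, where fewer bone marrow cells remain, gave 2 of 5 and a median of 0.38 in place of 1.36, where 7.37% of all genes were higher. Of 7 T lineage genes 3 were higher, Cd3g (2.90), Lck (1.93) and Lat (1.52), and Gata3 (-1.34) was lower. Of 12 lymphoid progenitor genes 3 were higher, among them Satb1 (1.74) and Notch1 (1.41), and 2 lower, among them Il7r (-1.43, 192 against 517 CPM). Of 15 B lineage genes 2 reached 10 CPM, of which Cd24a was higher (2.28). The others were below 10 CPM in the cells without Dntt too. Among them, Vpreb2, Vpreb3, Igll1, Pax5, Blnk and Ms4a1 had 0 UMIs in the Dntt-positive cells, which does not set these cells apart. Among the factors known to act on lymphoid genes, 7 of 17 were higher and 5 lower, with Ikzf3 (-4.39) and E2f2 (3.46) at the ends. In the list of recombination enzymes, Xrcc6 (1.40, 25.6 against 9.69 CPM) and Hmgb2 (1.38) were the 2 of 10 that were higher.

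Genes of the cell cycle were higher in Dntt-positive cells, in 14 of 14 measured genes of the G2 and M phases (median 2.08) and 14 of 15 of the S phase (median 1.50). Hmmr (2.74) and Ccnb2 (2.37) led the former and Rrm2 (2.24) and Tyms (1.95) the latter. The lists were also taken without the dividing cluster 0, which held Dntt in most of its cells. The dividing cluster 10, with few Dntt-positive cells, was kept. The removal thus took a larger share of the cells with Dntt than of those without. It therefore cannot show where the G2 and M difference came from. Without cluster 0, 270 cells with and 5457 without Dntt remained, and 8.11% of all genes were higher and 9.94% lower in the former. There, 1 of 7 measured G2 and M genes was higher and 1 lower, with a median of 0.13. The S phase genes were still higher in 11 of 14 (median 1.30) and the ILC progenitor genes still lower in 10 of 13 (median -1.37).

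Fetal liver cells with Rag1 carried another set of genes. They were described on all UMIs, 135 cells with and 8448 without Rag1, since thinned sets held few molecules. Of 6732 genes 5.53% were at least 2-fold higher and 6.02% at least 2-fold lower. All 11 measured B lineage genes were higher, with a median log2 ratio of 5.01. Ebf1 stood at 709 against 16.1 CPM (5.46), Vpreb3 at 682 against 19.5 CPM (5.13), Igll1 at 273 against 7.02 CPM (5.28) and Cd79a at 524 against 17.1 CPM (4.93). Pax5, the factor that maintains B cell identity, stood at 38.9 against 0.978 CPM (5.31). In the recombination list, Rag2 (4.57, 29.5 against 1.24 CPM) and Xrcc6 (2.38, 86.6 against 16.7 CPM) were higher, and Lig4, below 10 CPM, stood at 4.39 against 0.669 CPM. Cell cycle genes stood apart from the bone marrow pattern, with 0 of 15 G2 and M genes (median 0.33) and 0 of 15 S phase genes (median 0.11) at least 2-fold higher. The splits compared differ in gene and depth setting as well as in tissue, and the difference between the tissues in this respect was not tested.

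These values were again tied to cluster 16, which held 69 of the 135 cells. In the 66 Rag1-positive cells outside it, 9.06% of all genes were at least 2-fold higher and 7.69% lower than in the other cells outside it. Among the lists, 4 B lineage genes reached 10 CPM and 3 were higher, Ebf1 at 46.7 against 3.84 CPM, Cd24a at 106 against 18.7 CPM and Cd79a at 11.7 against 2.47 CPM, while Igll1, Vpreb3 and Pax5 did not reach that level. T lineage genes were higher in 6 of 11 cases in these cells, with a median log2 ratio of 1.19. Bcl11b, the factor of T lineage commitment, stood at 270 against 56.5 CPM, Lck at 141 against 35.7 CPM and Cd8a at 31.1 against 2.98 CPM. Gzma, the leading gene of Dntt-positive bone marrow cells, stood at 650 against 83.8 CPM (2.96). All 5 genes of lymphoid tissue inducer cells were lower in these cells too, with Lta at 10.4 against 255 CPM. Rag2 stood at 32.5 against 0.962 CPM. In the 131 fetal liver cells with Rag2, those of cluster 16 included, 9 of 9 measured B lineage genes were higher (median 3.70), where 5.02% of all genes were.

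**Figure D5:**
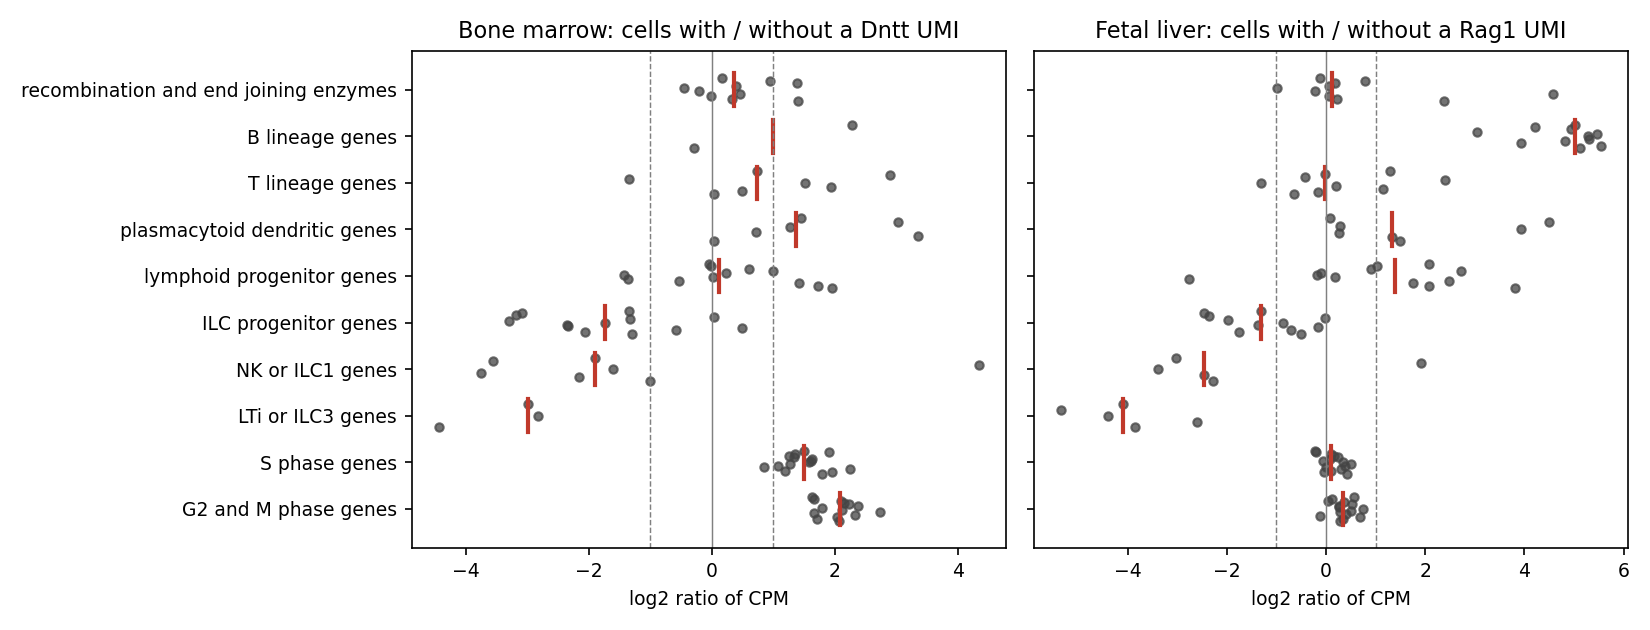
Log2 ratio of CPM between cells with and without a UMI of Dntt in bone marrow (left, cells thinned to 2000 UMIs) and of Rag1 in fetal liver (right, all UMIs) for the genes of 10 lists with at least 10 CPM in either set. Each point is 1 gene, red bars are medians and dashed lines mark 2-fold. B lineage genes stand highest on the right (median 5.01), G2 and M genes have a median of 2.08 on the left (0.13 without cluster 0) and 0.33 on the right, and the medians of the ILC progenitor and inducer lists lie below 0 on both sides.

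Cells were also compared across tissues by whether they held Ly6d, without using the recombination genes. Over cells thinned to 2000 UMIs, 235 fetal liver cells and 369 bone marrow cells held Ly6d. Among them Dntt had 0 fetal UMIs and stood at 394 CPM in bone marrow, at least 61.8-fold lower in fetal liver. Rag1 stood at 42.6 CPM in the fetal and 2.71 CPM in the adult cells, from 20 and 2 UMIs (log2 ratio 3.97, 1.93 to 7.11), and Rag2 at 27.7 and 8.13 CPM, from 13 and 6 UMIs (1.77, 0.27 to 3.45). Cluster 16 held 86 of the fetal cells. Without it Rag1 stood at 36.9 CPM from 11 UMIs (3.77, 1.57 to 6.98) and Rag2 at 13.4 CPM from 4 UMIs (0.72, -1.55 to 2.80). Of 7220 genes, 11.0% passed the 2-fold rule toward fetal liver and 11.3% toward bone marrow. B lineage genes were higher in fetal liver in 11 of 13 cases (median 3.21), and plasmacytoid dendritic genes in 3 of 7. These lists include the cells of cluster 16 and were not taken without it. On all UMIs, the Ly6d-positive cells of fetal clusters 1 and 10 had 0 Igll1 UMIs. Cd79a stood at 33.6, 74.1 and 74.7 CPM over the Ly6d-positive classes of cluster 10. Cells with Arpp21, 128 and 161 after thinning, also had 0 Dntt UMIs in fetal liver, against 484 CPM in bone marrow.

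Against the cells of their own library without Ly6d, the Ly6d-positive cells were described by the same lists. Plasmacytoid dendritic genes were at least 2-fold higher in 7 of 7 cases in fetal liver (median 2.53), where 11.0% of all genes were, and in 4 of 5 cases in bone marrow (median 2.01), where 7.73% were. B lineage genes were higher in 13 of 13 cases in fetal liver (median 4.03) and 2 of 3 measured in bone marrow. Both fetal counts include the B lineage-like cluster 16, whose cells with most Ly6d carried plasmacytoid dendritic genes. They were not taken without it. ILC progenitor genes were lower in 7 of 12 fetal and 9 of 13 adult cases, where 8.98% and 8.94% of all genes were. G2 and M genes were higher in 0 of 15 cases in fetal liver and 13 of 14 in bone marrow. The bone marrow count includes cells of the dividing cluster 0 and was not taken without it. For Arpp21-positive cells, T lineage genes were higher in 7 of 12 cases in fetal liver (median 1.37), where 15.5% of all genes were, and in 4 of 8 in bone marrow (median 1.11), where 9.77% were.

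The genes most like each member were ranked by Pearson's r of log-transformed counts over the cells of 1 library, 8583 in fetal liver and 7258 in bone marrow. These correlations are descriptions, since the cells share a library and differ in depth, which moves all genes together. In bone marrow Dntt was most like Ly6d (0.577), Arpp21 (0.477), Plac8 (0.471), Anxa2 (0.443) and Cd24a (0.415), so the 2 highest were other members. In fetal liver Rag1 was most like Mzb1 (0.382), Ebf1 (0.376), Vpreb3 (0.344) and Cd79a (0.343), and Rag2 was most like Mzb1 (0.301), Rag1 (0.273) and Cd79a (0.241). Ly6d was most like Mzb1 (0.613), Cox6a2 (0.576) and Siglech (0.482) in fetal liver and Dntt (0.577), Plac8 (0.429) and Anxa2 (0.342) in bone marrow. Arpp21 was most like Mzb1 (0.451), Ly6d (0.441) and Plac8 (0.407) in fetal liver and Dntt (0.477), Anxa2 (0.360) and Ly6d (0.335) in bone marrow. The order at the top thus differed by tissue, with Dntt beside Ly6d and Arpp21 in the adult library and Mzb1, a chaperone of antibody-secreting and plasmacytoid cells, in that place in the fetal one. Thinning to 2000 UMIs lowered these values, for example to 0.435 for Dntt with Ly6d.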

How the data were processed

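For each library the authors deposited a matrix of unnormalised UMI counts with genes in rows and barcodes in columns. Per the labels' protocols, the authors counted UMIs and removed barcodes not associated with cells. Per the file headers, the matrices came from software version 3.0.1 in format 2. The submitters' processing notes name mm10 and Seurat 4.0 without a role, and no source used here names the aligner or annotation. Deposited gene and barcode lists carry no measured unit (other).

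Cells with under 500 genes or over 10% mitochondrial UMIs were removed, 363 of 8946 barcodes in fetal liver and 109 of 7367 in bone marrow. No doublet caller was run, and leaving out the 10% deepest cells was tried instead. Counts were summed over cells and divided by the library total (CPM). Ratios have exact conditional intervals, levels exact Poisson intervals and shares exact Clopper-Pearson intervals, at 95%. A fold against 0 counts was taken against 3 counts per set. Thinning drew UMIs without replacement (seed 0). Each library was clustered with scanpy 1.11.5 (2000 variable genes without the 5 members, 30 components, 15 neighbours, Leiden resolution 1). A marker was called raised in a cluster at 10 CPM or more and 2-fold over the other cells on CPM plus 1. The computations were tested on simulated data. Python 3.11.15, numpy 2.4.6, scipy 1.17.1, pandas 2.3.3 and, for TMM factors, edgeR 4.0.16 were used.

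The members and gene lists were chosen with earlier results of these data known. Named genes are the members, the 4 largest differences of each list between tissues or between bone marrow cells with and without Dntt at 10 CPM or more, the 10 leading genes of Dntt-positive cells at 50 CPM or more, the 8 most alike by correlation, and any recombination enzyme. Genes named by cluster, by Ly6d class and in the fetal Rag1 split were chosen after their values were seen.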

Additional observations from a re-analysis of the deposited data

How the results depend on the processing

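No paired analysis was possible because each tissue had 1 library. The direction of Dntt was kept in every alternative that gave a value. The thinned clustering could give no fetal Dntt value, since no UMI was left. The alternatives without the fetal B lineage-like cluster, without the dividing bone marrow cluster 0 and over the Ly6d-containing clusters were chosen after seeing the data. The log2 ratio of Rag1 between the tissues was 1.95 without the 10% deepest cells, 1.87 with each cell weighing the same and 0.055 without the fetal B lineage-like cluster. That of Rag2 was 0.98, 1.10 and -0.38 under the same settings and -0.11 with at least 1000 genes per cell. That of Ly6d was -0.40, -0.26 and -2.14 under those 3 settings, -1.32 with at least 1000 genes, -0.74 over the Ly6d-containing clusters, which Ly6d itself chose, and -1.63 over these without the B lineage-like cluster, -1.02 under TMM and -0.99 under median-ratio scaling. That of Arpp21 was -0.92 without the 10% deepest cells, -0.67 with each cell weighing the same, -1.41 with at least 1000 genes, -0.82 over the Ly6d-containing clusters and -0.76 over these without the B lineage-like cluster. Thinned to 2000 UMIs, 45.3% of bone marrow Dntt-positive cells held Ly6d and 21.7% held Arpp21, 62.5% of Rag1-positive and 38.5% of Rag2-positive bone marrow cells held Dntt, and 17.6% of bone marrow Ly6d-positive cells held Arpp21. In fetal liver 9.76% of Rag1-positive cells then held Rag2 and 39.0% Ly6d, and 22.1% of Ly6d-positive cells held Arpp21. With at least 2 UMIs of both genes the values in the same order were 47.8%, 19.95%, 66.7%, 100% and 15.4% in bone marrow. The 66.7% and 100% came from only 2 of 3 and 4 of 4 cells, too few to describe. In fetal liver the values were 11.1% for Rag1 with Rag2, from 5 of 45 cells, and 28.6% for Ly6d with Arpp21. Without the 10% deepest cells 94.7% of bone marrow Rag2-positive cells held Dntt, and without the B lineage-like cluster 53.3% of fetal Ly6d-positive cells held Arpp21. Thinned to 1000 UMIs, 977 genes in place of 608 were at least 2-fold higher in Dntt-positive cells. With a minimum of 10 CPM in place of 1 CPM, 503 in place of 1091 genes passed the 2-fold rule toward fetal liver and 753 in place of 1791 toward bone marrow, and with no minimum 1878 and 3320. The causes of these changes were not tested, beyond the cells or UMIs each setting leaves out. Depth limits the Rag genes most, with 30 Rag1 and 48 Rag2 UMIs in bone marrow.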
